A study of Mus musculus with 6 samples.

Results

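The 34 genes of sterol and fatty acid synthesis were read in C2C12 myotubes treated with corticosterone or with ethanol vehicle. They were picked by name from 46983 genes in 1 table of read counts, and all 34 were among the 14450 genes abundant enough to be tested. They fall into 18 sterol enzymes, 6 regulators and 10 fatty acid enzymes. C2C12 is a mouse myoblast line of wild-type genotype, below passage 7, differentiated for 7 days in medium with 2% horse serum, so every library comes from 1 cell line. The treated myotubes received corticosterone, the main glucocorticoid of rodents, at 1e-07 M for 24 h, and the vehicle myotubes received ethanol at 1 µL/mL for 24 h. Each treatment had 3 libraries from separate biological replicates, per the design text, called corticosterone 1, 2 and 3 and vehicle 1, 2 and 3 here. The comparison asks which genes differ between treated and vehicle myotubes.

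Cells build cholesterol from acetyl-CoA, first through the mevalonate enzymes to farnesyl diphosphate, then through squalene and lanosterol to the finished sterol. Fatty acids are built from the same acetyl-CoA by carboxylation and repeated condensation, and are then lengthened and desaturated. Both routes are driven by the sterol regulatory element binding proteins, transcription factors made from Srebf1 and Srebf2. The factors are escorted out of the endoplasmic reticulum by Scap when sterol is scarce, and are held back by the Insig proteins when it is plentiful. These lipids are used in cell membranes, and their use in myotubes was not measured here.

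Promoter sequences are shown for 4 members to set the genes' control regions beside their values. Hmgcs1 is shown because, of the 27 members with a window, only its window held a sterol response element core. Acat2, Msmo1 and Fads2 are shown because they were among the members that divided the libraries without overlap, as given further on. The sequences are RefSeq windows on GRCm38.p6, 250 bases before to 50 after the annotated start, read 5′ to 3′ on the gene's strand. Capitals mark the sterol response element core TCACNCCAC, the NF-Y box CCAAT and the GC box GGGCGG, each searched on both strands.
Hmgcs1 chr13:119690101-119690400 (+): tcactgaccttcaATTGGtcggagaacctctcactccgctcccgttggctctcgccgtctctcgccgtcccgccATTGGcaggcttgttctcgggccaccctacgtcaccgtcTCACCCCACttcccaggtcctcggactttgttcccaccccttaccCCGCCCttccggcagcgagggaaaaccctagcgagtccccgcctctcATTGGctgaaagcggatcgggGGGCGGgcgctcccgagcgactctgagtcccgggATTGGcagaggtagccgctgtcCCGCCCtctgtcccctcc
Acat2 chr17:12960676-12960975 (-): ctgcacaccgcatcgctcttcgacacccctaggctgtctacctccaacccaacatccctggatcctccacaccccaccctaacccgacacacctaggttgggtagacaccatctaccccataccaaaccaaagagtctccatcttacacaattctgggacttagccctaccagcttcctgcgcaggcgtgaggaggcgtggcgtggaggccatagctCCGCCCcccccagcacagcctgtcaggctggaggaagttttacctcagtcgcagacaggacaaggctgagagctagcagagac
Msmo1 chr8:64733529-64733828 (-): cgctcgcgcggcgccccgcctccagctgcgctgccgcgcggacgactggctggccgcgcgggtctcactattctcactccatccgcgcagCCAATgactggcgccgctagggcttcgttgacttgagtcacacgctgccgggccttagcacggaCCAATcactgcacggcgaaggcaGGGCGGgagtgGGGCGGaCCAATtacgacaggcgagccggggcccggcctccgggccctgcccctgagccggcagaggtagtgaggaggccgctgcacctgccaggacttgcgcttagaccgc
Fads2 chr19:10101454-10101753 (-): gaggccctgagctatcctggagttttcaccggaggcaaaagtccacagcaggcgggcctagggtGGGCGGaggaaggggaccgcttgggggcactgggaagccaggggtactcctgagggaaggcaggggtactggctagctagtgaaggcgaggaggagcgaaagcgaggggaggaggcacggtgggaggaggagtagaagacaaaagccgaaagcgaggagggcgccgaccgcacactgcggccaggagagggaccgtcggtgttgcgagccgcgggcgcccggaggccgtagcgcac
The Hmgcs1 window holds 1 sterol response element core, 4 NF-Y boxes and 3 GC boxes, and the Msmo1 window holds 3 NF-Y boxes and 2 GC boxes. The Acat2 and Fads2 windows each hold 1 GC box and neither of the other motifs. Windows were found for 27 of the 34 members, some with more than 1 window. Fdps, Fdft1, Sqle, Stard4, Scd1, Scd2 and Fads1 had no window and were not searched. A gene was counted where any of its windows held the motif. The sterol response element core stood in 1 of the 27 (3.7%), against 1.44% of 27025 genes in the whole table. The NF-Y box stood in 22 of 27 (81.5%), against 41.1% of genes in the table and 42.8% of the 10091 tested genes with a window. By arm it stood in 14 of 15 sterol enzymes, 4 of 5 regulators and 4 of 7 fatty acid enzymes. The GC box stood in 22 of 27 members (81.5%), against 38.2% of the table and 67.7% of the tested genes. Matches shared bases 1 time in the 36 member windows. These counts describe letters in a window and say nothing of binding.

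The libraries held 23877583 to 29928653 counts, and 19541 to 20404 genes had at least 1 count in each. The lowest count of any member in any library was 99. Myotube markers were abundant in all 6 libraries. The 5 found of 6 listed summed to 9164, 8813 and 9417 CPM in corticosterone 1, 2 and 3, against 6362, 7290 and 8918 CPM in vehicle 1, 2 and 3 (CPM, read counts after TMM scaling of all libraries to the same size). Of 6 adipocyte markers, 4, Adipoq, Cidec, Cfd and Lep, had no count in any library, and none of the 3 hepatocyte markers passed 0.0393 CPM in a library. Glucocorticoid-induced genes did not follow the labels in 2 libraries. Fkbp5, whose product binds the glucocorticoid receptor complex, stood at 151, 36.9 and 135 CPM in corticosterone 1, 2 and 3, against 36.9, 177 and 35.4 CPM in vehicle 1, 2 and 3. Tsc22d3, the glucocorticoid-induced leucine zipper gene, and Per1, a clock gene that glucocorticoids induce, were ordered in the same way, with corticosterone 2 among the low libraries and vehicle 2 among the high ones. Whether the labels of these 2 libraries were exchanged cannot be told from the files. The names corticosterone 2 and vehicle 2 are those of the labels, and every difference by label holds only if both labels are right. The differences by label of the arms, and of several members, are therefore also given with both libraries numbered 2 left out. The libraries are in addition set side by side as corticosterone 1, corticosterone 3 and vehicle 2, called Fkbp5-high, and corticosterone 2, vehicle 1 and vehicle 3, called Fkbp5-low. That division follows measured levels and is not the study's grouping, so its values are a description with no mean and no test.

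By label, no member of either route passed the test. Of the 34 members, 0 passed edgeR's quasi-likelihood test with Benjamini-Hochberg adjustment over all genes, where 0% of the 14450 genes passed. limma-voom called 0 members (0% of all genes) and DESeq2 called 0 members, against 0.955% of all genes. At an unadjusted p under 0.05 there were 3 members, Ebp, Stard4 and Fads1, against 11.8% of all genes. The log2 difference, corticosterone minus vehicle, was positive for 13 of 18 sterol enzymes (median 0.063), 3 of 6 regulators (median 0.045) and 4 of 10 fatty acid enzymes (median -0.052), and the median of all genes was 0.0040. The labelled groups did not overlap in CPM for 2 members, Stard4 higher and Ebp lower, where 16.6% of all genes did not overlap, 8.41% higher and 8.19% lower. The median standard error was 0.18 for the sterol enzymes, 0.094 for the regulators and 0.17 for the fatty acid enzymes.

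**Figure D1:**
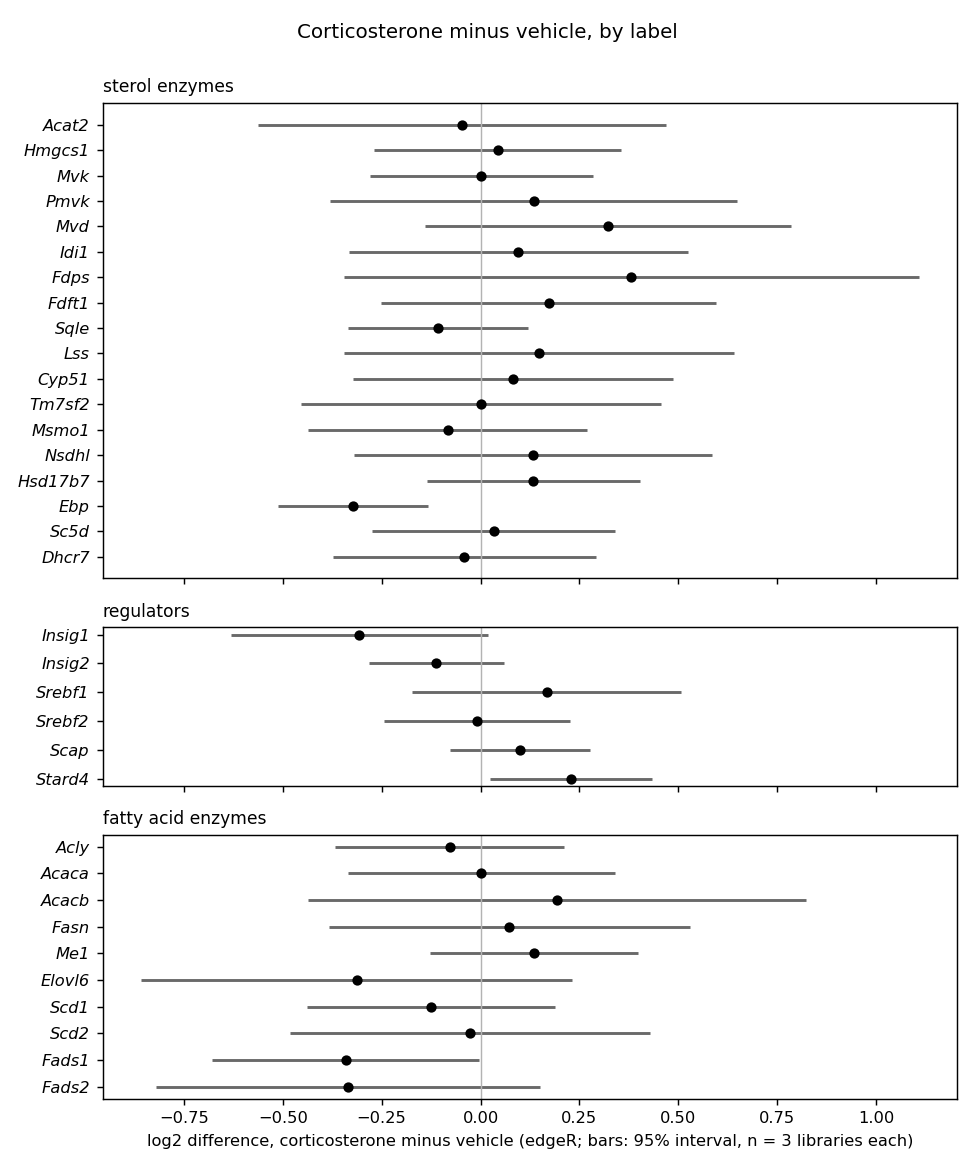
Log2 difference by label for each member, corticosterone minus vehicle on the x axis, with the gene on the y axis. Points are edgeR estimates and bars 95% intervals (n = 3 libraries each), which include 0 for all members but Ebp, Stard4 and Fads1, and none of those 3 passed after adjustment.

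With both libraries numbered 2 left out, 16 of 18 sterol enzymes, 4 of 6 regulators and 9 of 10 fatty acid enzymes had a negative log2 difference, with medians of -0.13, -0.089 and -0.30 (all genes -0.0013). Again 0 members passed the edgeR test, where 0.0208% of genes did, and 17 members did not overlap between the labels, against 37.1% of all genes. The libraries left out were chosen on glucocorticoid-induced genes, so this fit compares the Fkbp5-high and Fkbp5-low libraries whose labels match their Fkbp5 level. No member was called without corticosterone 1, where 0.199% of genes were, or without vehicle 3, where 0.0744% were.

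The first steps of sterol synthesis showed how the 6 libraries were ordered. Acat2, the cytosolic thiolase that joins 2 acetyl-CoA units (ENSMUSG00000023832, GRCm38 chromosome 17, 12942890 to 12960747), was at 55.5, 75.0 and 63.1 CPM in corticosterone 1, 2 and 3, against 71.8, 45.0 and 83.4 CPM in vehicle 1, 2 and 3. It was lowest in vehicle 2 and corticosterone 1 and highest in vehicle 3, and every Fkbp5-high library lay below every Fkbp5-low one. By label it overlapped fully, with a log2 difference of -0.047 ± 0.22 (SE, by edgeR adjusted p = 0.943). Hmgcs1, HMG-CoA synthase (ENSMUSG00000093930, GRCm38 chromosome 13, 119690379 to 119708260), was at 247, 312 and 302 CPM in corticosterone 1, 2 and 3, against 300.4, 233 and 302 CPM in vehicle 1, 2 and 3. Here vehicle 2 and corticosterone 1 lay apart below the other 4 libraries, which spanned only 300.4 to 312 CPM. Its log2 difference by label was 0.043 ± 0.13 (SE, by edgeR adjusted p = 0.908).

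The 3 enzymes that phosphorylate and decarboxylate mevalonate were less abundant. Mvk, mevalonate kinase, stood at 24.9, 31.4 and 33.9 CPM under corticosterone, against 31.1, 28.6 and 30.4 CPM under vehicle. It had the smallest difference by label of the sterol enzymes, 0.0017 ± 0.12 (SE, interval -0.28 to 0.28). Pmvk, phosphomevalonate kinase, stood at 29.1, 47.0 and 38.5 CPM under corticosterone, against 34.7, 26.3 and 43.5 CPM under vehicle. Mvd, mevalonate diphosphate decarboxylase, stood at 36.4, 51.8 and 53.7 CPM under corticosterone, against 35.4, 30.7 and 47.6 CPM under vehicle. Its log2 difference was 0.32 ± 0.20 (SE, by edgeR adjusted p = 0.541), and the groups overlapped because vehicle 3 lay above corticosterone 1. All 3 genes lay low in corticosterone 1 and vehicle 2, as Hmgcs1 did, although vehicle 1 lay below corticosterone 1 for Mvd.

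Idi1, the isomerase that makes dimethylallyl diphosphate, stood at 57.6, 85.2 and 90.6 CPM under corticosterone, against 76.5, 60.6 and 81.3 CPM under vehicle. Corticosterone 1 and vehicle 2 were again the lowest pair and corticosterone 3 the highest. Fdps, farnesyl diphosphate synthase, was counted at only 5.90, 8.08 and 9.04 CPM under corticosterone, against 6.33, 3.41 and 7.97 CPM under vehicle. It had the largest fitted difference of the sterol enzymes, 0.38 ± 0.31 (SE, by edgeR adjusted p = 0.637), on 99 to 236 counts, with vehicle 2 far below the rest. Its level is uncertain, because 1124 of its exonic bases overlap Gm43738, which had 0 counts, and because Gm3571, a processed pseudogene 98.9% identical to it over 1062 bases, took 371 to 548 counts per library. Idi1 also matches Gm13502, a processed pseudogene with 29 to 42 counts per library, at 100% over 684 bases, and Acat2 its paralog Acat3, with 8 to 56 counts, at 97.7% over 1477 bases.

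The enzymes from squalene to lanosterol kept this order of libraries. Fdft1, squalene synthase, stood at 96.6, 155 and 147 CPM in corticosterone 1, 2 and 3, against 127, 102 and 125 CPM in vehicle 1, 2 and 3. Its 774 exonic bases shared with Ctsb, on the other strand, cannot be assigned to either gene without strand. Sqle, squalene epoxidase, a rate-controlling step (ENSMUSG00000022351, GRCm38 chromosome 15, 59315077 to 59331192), was at 161, 178 and 175 CPM in corticosterone 1, 2 and 3, against 207, 165 and 182 CPM in vehicle 1, 2 and 3. The 3 Fkbp5-high libraries were the 3 lowest for Sqle, though corticosterone 3 lay only just under corticosterone 2, and the highest over the lowest library was 1.28, the narrowest spread of the sterol enzymes. Lss, lanosterol synthase, stood at 54.3, 87.2 and 70.8 CPM under corticosterone, against 69.5, 47.8 and 74.4 CPM under vehicle. Cyp51, lanosterol demethylase, stood at 198, 309 and 294 CPM under corticosterone, against 284, 227 and 246 CPM under vehicle. Both were highest in corticosterone 2. Lss was lowest in vehicle 2 and Cyp51 in corticosterone 1.

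Among the enzymes that trim lanosterol to cholesterol, Msmo1, a sterol methyl oxidase (ENSMUSG00000031604, GRCm38 chromosome 8, 64718139 to 64733792), was at 83.3, 111 and 108 CPM in corticosterone 1, 2 and 3, against 123, 88.6 and 109 CPM in vehicle 1, 2 and 3. It was 1 of the members whose Fkbp5-high libraries all lay below the Fkbp5-low ones, with corticosterone 3 next to vehicle 3. Nsdhl, a sterol dehydrogenase that acts in demethylation, stood at 82.6, 124 and 121 CPM under corticosterone, against 109, 77.1 and 113 CPM under vehicle. Sc5d, a sterol desaturase, stood at 42.3, 57.3 and 52.0 CPM under corticosterone, against 53.0, 43.2 and 52.1 CPM under vehicle. Sc5d, too, divided the Fkbp5-high from the Fkbp5-low libraries without overlap, by a margin of 51.97 against 52.06 CPM between corticosterone 3 and vehicle 3. Tm7sf2, a sterol reductase, ranged from 11.8 CPM in corticosterone 1 to 19.9 CPM in corticosterone 2. Hsd17b7, a ketosteroid reductase of the demethylation steps, ranged from 44.1 CPM in vehicle 2 to 58.97 CPM in corticosterone 3. Their log2 differences by label were 0.0021 ± 0.19 and 0.13 ± 0.12 (SE).

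Ebp and Dhcr7 did not share this order. Ebp, the sterol isomerase (ENSMUSG00000031168, GRCm38 chromosome X, 8185329 to 8193512), was at 96.8, 95.5 and 84.9 CPM in corticosterone 1, 2 and 3, against 119, 109 and 119 CPM in vehicle 1, 2 and 3. Every corticosterone library lay below every vehicle library, and vehicle 2 went with the other vehicle libraries. It averaged 92.4 ± 6.53 CPM under corticosterone and 116 ± 5.95 CPM under vehicle (SD, n = 3 each), a log2 difference of -0.32 ± 0.081 (SE, 95% interval -0.51 to -0.13). The edgeR adjusted p was 0.364, and 0.0805 by DESeq2. With both libraries numbered 2 left out the difference was -0.39. Dhcr7, the reductase of the last step, stood at 165, 149 and 142 CPM in corticosterone 1, 2 and 3, against 142, 135 and 193 CPM in vehicle 1, 2 and 3. Its highest libraries were vehicle 3 and corticosterone 1, which lay near each other over all genes, and its log2 difference was -0.041 ± 0.14 (SE, by edgeR adjusted p = 0.921).

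**Figure D2:**
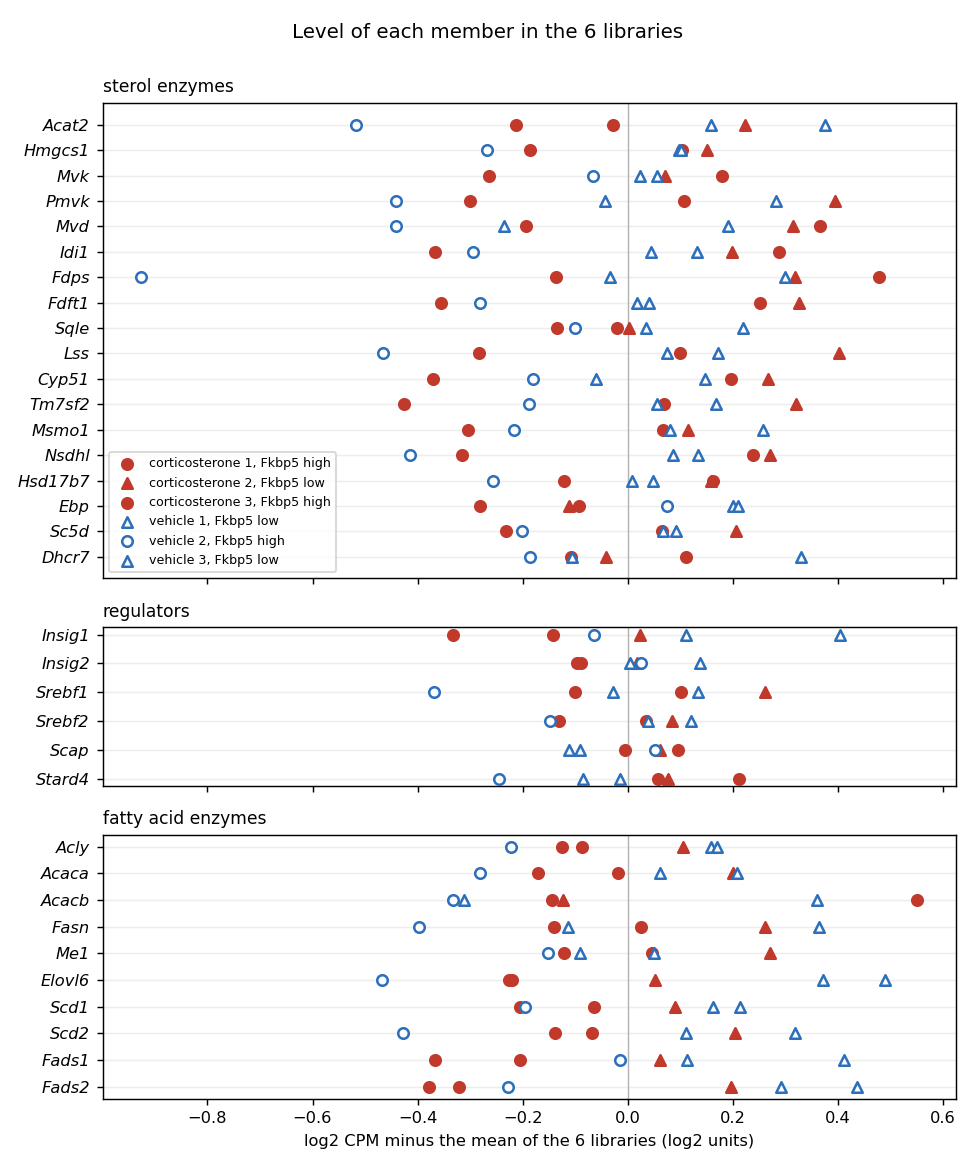
Level of each member in each library, as log2 CPM minus the mean of the 6 libraries (x axis), with the gene on the y axis. Red symbols are libraries labelled corticosterone and open blue symbols vehicle, and circles are Fkbp5-high and triangles Fkbp5-low libraries. For most sterol enzymes the 2 leftmost circles are corticosterone 1 and vehicle 2, while for the desaturases all 3 circles lie left of all triangles.

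The regulators varied less than the enzymes, with a median ratio of highest to lowest library of 1.29, against 1.57 for the sterol enzymes, 1.69 for the fatty acid enzymes and 1.39 for all genes. Srebf1 (ENSMUSG00000020538, GRCm38 chromosome 11, 60199089 to 60222581) was at 147, 189.6 and 169.6 CPM in corticosterone 1, 2 and 3, against 155, 123 and 174 CPM in vehicle 1, 2 and 3. Srebf2 (ENSMUSG00000022463, GRCm38 chromosome 15, 82147181 to 82205379) was at 412, 426 and 367 CPM in corticosterone 1, 2 and 3, against 412, 363 and 437 CPM in vehicle 1, 2 and 3. Srebf1 was highest in corticosterone 2 and lowest in vehicle 2, at a log2 difference of 0.17 ± 0.15 by label (SE, by edgeR adjusted p = 0.655). Srebf2 had a smaller one, -0.0085 ± 0.10 (SE, interval -0.24 to 0.23), and its Fkbp5-high libraries lay just below its Fkbp5-low ones, by 411.7 against 412.5 CPM between corticosterone 1 and vehicle 1. Scap, the escort protein gene, stood at 64.5, 63.0 and 60.2 CPM under corticosterone, against 55.9, 62.6 and 56.7 CPM under vehicle. It had the narrowest range of all 34 members, 1.15 from highest to lowest.

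Insig1, itself a target of the SREBP factors (ENSMUSG00000045294, GRCm38 chromosome 5, 28071363 to 28078662), was at 82.1, 105 and 93.7 CPM in corticosterone 1, 2 and 3, against 137, 98.9 and 112 CPM in vehicle 1, 2 and 3. Vehicle 1 lay well above the rest, the groups overlapped only between corticosterone 2 and vehicle 2, and the Fkbp5-high libraries were the 3 lowest. It averaged 93.6 ± 11.5 CPM under corticosterone and 116 ± 19.3 CPM under vehicle (SD, n = 3 each), a log2 difference of -0.31 ± 0.14 (SE, by edgeR adjusted p = 0.437), which was -0.50 with both libraries numbered 2 left out. Insig2, its paralog, stood at 88.9, 96.3 and 89.5 CPM under corticosterone, against 105, 96.9 and 95.4 CPM under vehicle. Its difference pointed the same way at a smaller size, -0.11 ± 0.073 (SE, by edgeR adjusted p = 0.562). Stard4, a sterol carrier protein gene (ENSMUSG00000024378, GRCm38 chromosome 18, 33199355 to 33213862), was at 57.8, 58.6 and 64.3 CPM in corticosterone 1, 2 and 3, against 55.0, 46.9 and 52.4 CPM in vehicle 1, 2 and 3. All corticosterone libraries lay above all vehicle libraries, and vehicle 2 was the lowest of all. It averaged 60.2 ± 3.58 CPM under corticosterone and 51.4 ± 4.12 CPM under vehicle (SD, n = 3 each), a log2 difference of 0.23 ± 0.088 (SE, by edgeR adjusted p = 0.391), and 0.19 with both libraries numbered 2 left out.

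In the fatty acid route, the enzymes that make and join the building blocks divided the libraries in part. Acly, which splits citrate into cytosolic acetyl-CoA (ENSMUSG00000020917, GRCm38 chromosome 11, 100476353 to 100528000), was at 153, 157 and 143 CPM in the Fkbp5-high libraries, against 179.6, 186 and 188 CPM in the Fkbp5-low ones. Acaca, the cytosolic acetyl-CoA carboxylase, stood at 68.0, 61.2 and 56.7 CPM in the Fkbp5-high libraries, against 79.2, 71.9 and 79.6 CPM in the Fkbp5-low ones. Neither gene overlapped between those sets, by 157 against 179.6 CPM and by 68.0 against 71.9 CPM at the margin. By label both overlapped, with log2 differences of -0.078 ± 0.12 and 0.0016 ± 0.14 (SE, by edgeR adjusted p = 0.814 and 0.997). Fasn, the fatty acid synthase gene (ENSMUSG00000025153, GRCm38 chromosome 11, 120805846 to 120824547), was at 229.8, 205 and 172 CPM in the Fkbp5-high libraries, against 271, 209 and 291 CPM in the Fkbp5-low ones. It overlapped, because corticosterone 1 lay above vehicle 1. Me1, the malic enzyme that supplies NADPH, stood at 59.4, 66.7 and 58.2 CPM in the Fkbp5-high libraries, against 78.0, 67.0 and 60.7 CPM in the Fkbp5-low ones. Acacb, the mitochondrial acetyl-CoA carboxylase that holds back fatty acid oxidation, stood at 9.67, 5.97 and 5.24 CPM in the Fkbp5-high libraries, against 6.06, 5.32 and 8.48 CPM in the Fkbp5-low ones. Acacb was highest in corticosterone 1 and vehicle 3. Acaca matches Gm5182, a processed pseudogene, at 99.2% over 6118 bases. Me1 matches Gm7049, also a processed pseudogene, at 98.5% over 1638 bases, and Gm48795, a long noncoding RNA, at 98.7% over 1159. Some reads of Acaca and Me1 may thus be split with these copies. None of these copies was found by name among the deposited genes, so their counts could not be read.

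All 5 genes of the elongase and the desaturases divided the Fkbp5-high from the Fkbp5-low libraries without overlap. Scd2 (ENSMUSG00000025203, GRCm38 chromosome 19, 44293674 to 44306864) and Scd1 (ENSMUSG00000037071, GRCm38 chromosome 19, 44394455 to 44407879) encode desaturases that make monounsaturated fatty acids. Scd2 stood at 1907, 1816 and 1486 CPM in the Fkbp5-high libraries, against 2305, 2161 and 2495 CPM in the Fkbp5-low ones. Scd1 stood at 908, 824 and 829.8 CPM in the Fkbp5-high libraries, against 1011, 1062 and 1101 CPM in the Fkbp5-low ones. For both genes the 3 Fkbp5-high libraries were the 3 lowest, among the libraries labelled corticosterone as well as among those labelled vehicle. They were also the most abundant members per length, at a mean of 371 and 195 CPM per kilobase of exon, followed by Hmgcs1 at 61.5 and Cyp51 at 58.8, with Acacb the lowest at 0.705. The transcripts of Scd2 and Scd1 match at 95.5% over 623 bases, so some reads may be split between them.

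Fads1 (ENSMUSG00000010663, GRCm38 chromosome 19, 10182888 to 10196877) and Fads2 (ENSMUSG00000024665, GRCm38 chromosome 19, 10062765 to 10101746), neighbours on the same chromosome, encode the desaturases of polyunsaturated fatty acids. Fads2 stood at 56.2, 54.1 and 60.0 CPM in the Fkbp5-high libraries, against 80.5, 95.0 and 86.0 CPM in the Fkbp5-low ones. Fads1 stood at 91.4, 81.7 and 104 CPM in the Fkbp5-high libraries, against 110.0, 140.2 and 114 CPM in the Fkbp5-low ones. Both were lowest in corticosterone 3 and highest in vehicle 1. Elovl6, the elongase of saturated and monounsaturated chains (ENSMUSG00000041220, GRCm38 chromosome 3, 129532355 to 129638495), was at 25.9, 26.0 and 21.9 CPM in the Fkbp5-high libraries, against 31.4, 42.5 and 39.2 CPM in the Fkbp5-low ones. Elovl6 had the widest range of the fatty acid enzymes, 1.94 from vehicle 1 to vehicle 2, both labelled vehicle. By label, Fads1 averaged 94.3 ± 14.4 CPM under corticosterone and 119.5 ± 18.6 CPM under vehicle (SD, n = 3 each), a log2 difference of -0.34 ± 0.14 (SE, by edgeR adjusted p = 0.416). Fads2 differed by -0.34 ± 0.21 and Elovl6 by -0.31 ± 0.23 (SE, by edgeR adjusted p = 0.542 and 0.605), and in each case vehicle 2 lay among or below the corticosterone libraries. With both libraries numbered 2 left out, the differences were -0.56, -0.72 and -0.66.

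Over all 34 members, 13 lay lower in every Fkbp5-high library than in every Fkbp5-low one and 0 lay higher, where 4.74% of all genes lay lower and 4.89% higher (9.63% in both directions). They were 4 of 18 sterol enzymes (Acat2, Sqle, Msmo1 and Sc5d), 2 of 6 regulators (Insig1 and Srebf2) and 7 of 10 fatty acid enzymes (Acly, Acaca and all 5 of the elongase and desaturase genes). Among them, Sqle, Msmo1, Sc5d and Srebf2 lay lower by narrow margins after TMM scaling. These were 174.8 against 177.6, 107.8 against 108.8, 51.97 against 52.06 and 411.7 against 412.5 CPM. The members share regulators and are not independent of each other, so the 13 are not separate results. Vehicle 2 was the lowest library for 19 of the 34 members and corticosterone 1 for 10, against 14.7% and 14.9% of all genes. Corticosterone 2 was the highest for 10 and vehicle 3 for 9, against 17.9% and 14.5% of all genes.

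The summed CPM of the 10 fatty acid enzymes was 3508, 3298 and 2936 in corticosterone 1, corticosterone 3 and vehicle 2, against 4152, 4040.3 and 4462 in corticosterone 2, vehicle 1 and vehicle 3. All Fkbp5-high sums lay below all Fkbp5-low sums, and most of each sum came from Scd2 and Scd1. The 18 sterol enzymes summed to 1498, 1862 and 1479.8 CPM in the Fkbp5-high libraries, against 1955, 1859 and 1881 CPM in the Fkbp5-low ones. Corticosterone 3 thus stood with the Fkbp5-low libraries for the sterol enzymes and with the Fkbp5-high ones for the fatty acid enzymes. The 6 regulators summed to 852, 844 and 791 CPM in the Fkbp5-high libraries, against 938, 919.9 and 926 CPM in the Fkbp5-low ones.

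**Figure D3:**
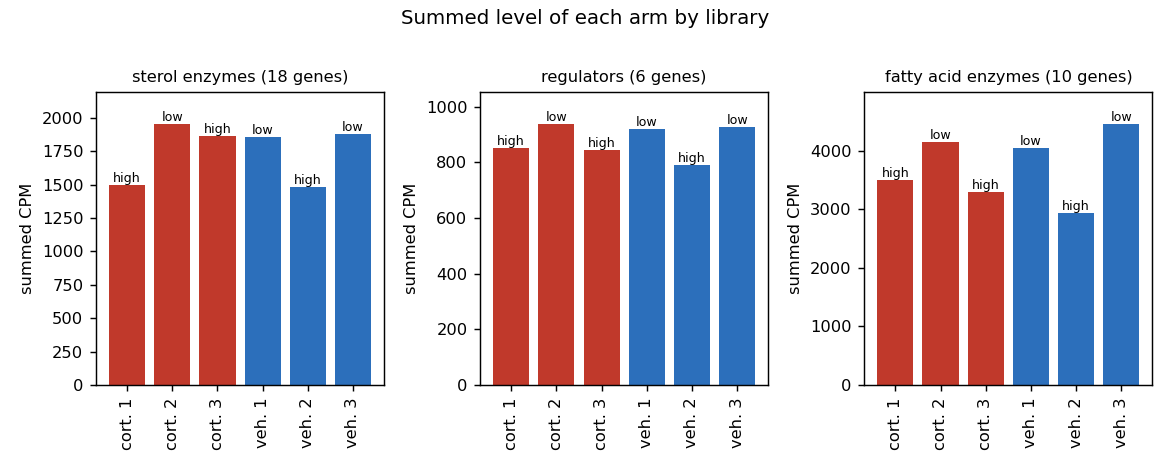
Summed CPM (y axis, from 0) of the sterol enzymes, regulators and fatty acid enzymes in each library (x axis; cort. for corticosterone in red, veh. for vehicle in blue). The word over each bar gives the library's Fkbp5 level, and for the fatty acid enzymes all bars marked high, 2936 to 3508 CPM, are lower than all bars marked low, 4040.3 to 4462 CPM.

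Over all genes tested, the libraries fell into 3 pairs of mutual nearest neighbours, corticosterone 1 with vehicle 3, corticosterone 3 with corticosterone 2, and vehicle 2 with vehicle 1. Log2 CPM correlated at 0.989 to 0.991 within these pairs and at most 0.986 between them. Each pair held 1 Fkbp5-high and 1 Fkbp5-low library, so the difference within a pair, high minus low, was read for each member. These pairs come from the data, and nothing in the labels states them. The difference was below 0 in all 3 pairs for 26 of 34 members and above 0 in all 3 for 0, where 20.5% and 20.0% of all genes were. They were 13 of 18 sterol enzymes, 4 of 6 regulators and 9 of 10 fatty acid enzymes.

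The difference within each pair was then read by arm. The fatty acid enzymes had medians of -0.31, -0.32 and -0.37 log2 units within the pairs of corticosterone 1, corticosterone 3 and vehicle 2, where all genes had medians of -0.0033, -0.0036 and 0.0017. The sterol enzymes had medians of -0.38, -0.057 and -0.32. All 18 sterol enzymes were below 0 in the pairs of corticosterone 1 and of vehicle 2, and 13 in the pair of corticosterone 3 and corticosterone 2. The sterol enzymes above 0 in that pair were Mvk, Mvd, Idi1, Fdps and Hsd17b7. The regulators had medians of -0.093, -0.13 and -0.21.

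Single genes show these sizes. Fads2 differed by -0.61, -0.57 and -0.66 log2 units within the pairs of corticosterone 1, corticosterone 3 and vehicle 2. Scd2 differed by -0.39, -0.34 and -0.54, and Fasn by -0.34, -0.40 and -0.28, all of similar size in the 3 pairs. Hmgcs1 differed by -0.29, -0.048 and -0.36, Cyp51 by -0.31, -0.069 and -0.33 and Nsdhl by -0.45, -0.033 and -0.50, each near 0 in the pair of corticosterone 3. Acat2, at -0.59, -0.25 and -0.67, and Lss, at -0.45, -0.30 and -0.54, were sterol enzymes with a lower level in all 3. Scap and Stard4 were above 0 in 2 of the 3 pairs. Scap differed by 0.19, -0.066 and 0.16 and Stard4 by 0.14, 0.14 and -0.23 within the pairs of corticosterone 1, corticosterone 3 and vehicle 2. Acacb, at 0.19, -0.021 and -0.021, was above 0 in the first of them and near 0 in the others.

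**Figure D4:**
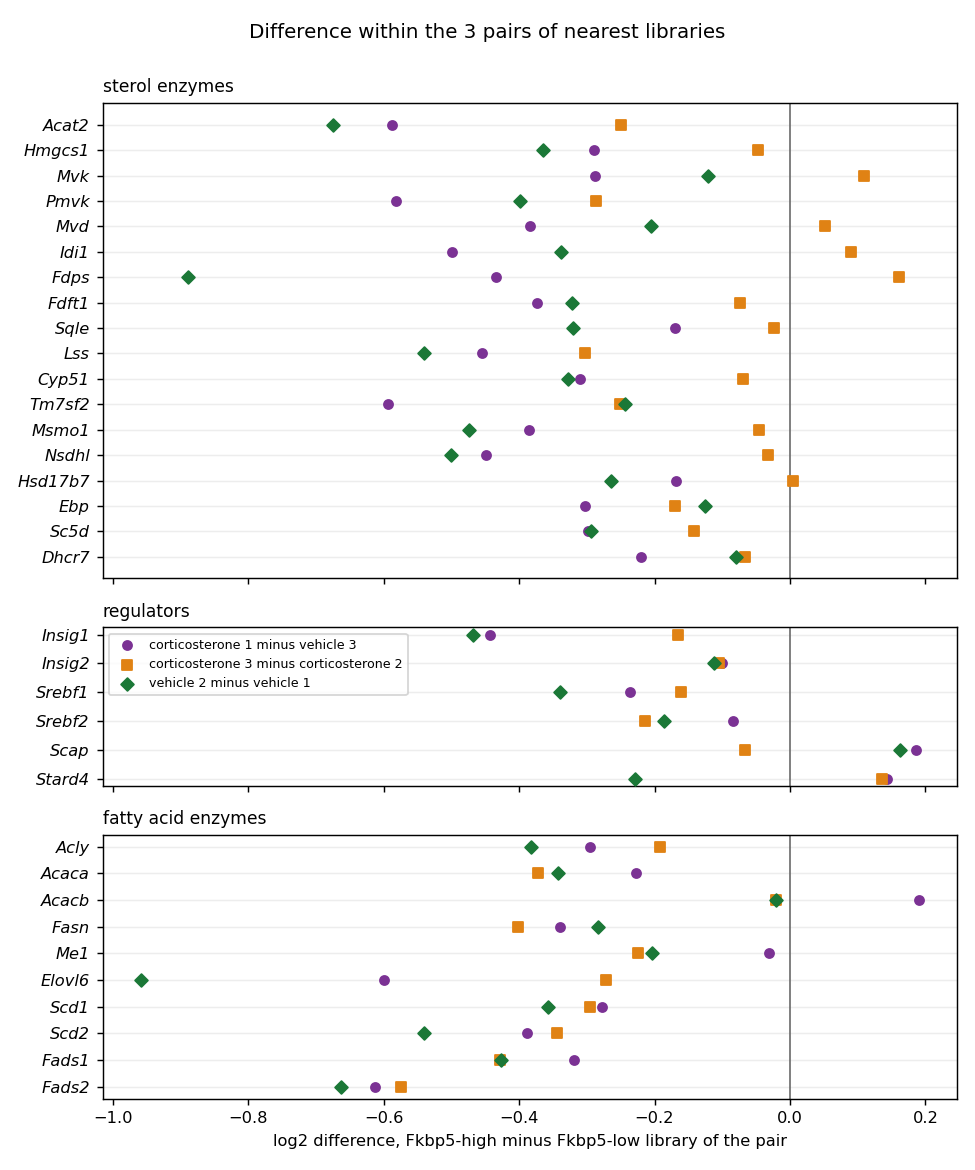
Log2 difference within each pair of nearest libraries, Fkbp5-high minus Fkbp5-low (x axis), for each member (y axis). Circles, squares and diamonds are the 3 pairs, and 26 of 34 members have all 3 symbols left of 0, while the squares of most sterol enzymes, the pair of corticosterone 3 and 2, lie close to 0.

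Other measures of the libraries were read beside this division. The proliferating myoblast markers (6 of 6 tested) summed to 230, 214 and 249.5 CPM in the Fkbp5-high libraries, against 217, 258 and 258 CPM in the Fkbp5-low ones. By label these sums did not overlap, at 230, 217 and 214 CPM under corticosterone, against 258, 249.5 and 258 CPM under vehicle. Between the Fkbp5 sets, Mki67 and Myf5 of this list did not overlap, and they lay in opposite directions. Mki67 was lower in the Fkbp5-high libraries, at 37.2, 34.1 and 43.9 against 46.1, 48.0 and 51.8 CPM. Myf5 was higher in them, at 29.8, 27.3 and 22.2 against 11.9, 18.2 and 21.9 CPM. The myotube markers summed to 9164, 9417 and 7290 CPM in the Fkbp5-high libraries, against 8813, 6362 and 8918 CPM in the Fkbp5-low libraries. The sums of both lists overlapped between the Fkbp5-high and Fkbp5-low libraries. So did the mitochondrially encoded part of the counts, 2.53, 2.39 and 1.67% in the Fkbp5-high libraries against 2.46, 1.69 and 2.76% in the Fkbp5-low ones. Total counts overlapped as well, at 29007179, 25826081 and 28496898 against 29928653, 24901830 and 23877583. Of the adipocyte markers, Fabp4, a fatty acid binding protein gene, was at 0.52, 1.10 and 1.00 CPM in the Fkbp5-high libraries, against 0.10, 0 and 0.042 CPM in the Fkbp5-low ones, and Plin1 at 0 to 0.039 CPM. The part of these in the members' values was not tested. In bulk libraries, fewer cells of a type and less RNA per cell cannot be told apart.

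Of 39 other genes of sterol and lipid handling, 36 were tested. None passed the edgeR test by label, 17 lay higher and 19 lower under corticosterone, and the median log2 difference was -0.018. The members of this list with the largest differences were Abca1, the cholesterol exporter gene, at 13.2, 7.64 and 4.44 CPM under corticosterone, against 15.2, 13.0 and 15.5 CPM under vehicle, and Acss2, cytosolic acetyl-CoA synthetase, at 26.0, 25.8 and 30.6 CPM under corticosterone, against 20.0, 17.7 and 23.5 CPM under vehicle. Abca1 differed by -0.79 ± 0.34 and Acss2 by 0.43 ± 0.13 (SE, by edgeR adjusted p = 0.426 and 0.364). Within the near pairs, 16 of the 36 (44.4%) were below 0 in all 3 and 7 (19.4%) above 0, where 20.5% and 20.0% of all genes were. Of the 36, 4 (11.1%), Aacs, Nr1h2, Acsl3 and Rdh11, lay lower in every Fkbp5-high library than in every Fkbp5-low one, and none lay higher. Of the 34 synthesis genes 13 (38.2%) lay lower, where 4.74% of all genes lay lower and 4.89% higher. Acsl3, an acyl-CoA synthetase gene, stood at 317, 297 and 247 CPM in the Fkbp5-high libraries, against 326, 346 and 383 CPM in the Fkbp5-low ones. Aacs, acetoacetyl-CoA synthetase, stood at 59.0, 59.9 and 58.3 CPM in the Fkbp5-high libraries, against 64.9, 70.6 and 67.5 CPM in the Fkbp5-low ones. These 4 genes were named after their values were seen.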

How the data were processed

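Poly(A) RNA from 6 C2C12 cultures was sequenced, and the values used are the raw gene counts that the authors deposited, 1 column for each library. Per the submitters' processing notes, the build was mm10 and the tools included DESeq2 1.24.0, HTSeq 0.6.1 and HISAT2 2.0.5. Not given in the sources used here are their settings, the annotation release and the strand setting, so reads of antisense or overlapping genes cannot be told apart. Counts were used as deposited, and no column or library was left out.

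The labelled groups were compared in edgeR 4.0.16 (R 4.3.3, TMM scaling, filterByExpr) by its two-sided quasi-likelihood test, with Benjamini-Hochberg adjustment over the 14450 genes kept and a threshold of 0.05. Intervals are 95%. Alternatives were DESeq2 1.42.0, limma-voom (limma 3.58.1), 3 other scalings, 2 other filters, replicate number as a block, each library left out, and both libraries numbered 2 left out. Differences within near pairs are log2 ratios of CPM with 0.5 counts added. Exon lengths, overlaps and coordinates come from GENCODE M21 (GRCm38), and matches between transcripts are megablast hits of at least 200 bases at 95% identity. A floor of 3 counts equalled 0.103 to 0.125 CPM and covers counting error only.

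The members and lists were chosen with earlier results of these data known. All 34 members are given, 21 of them in every library whatever their values, with the 3 largest differences and the smallest of each arm and any member called in any fit. Of the other pathway genes, the 2 with the largest differences were to be named.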

Additional observations from a re-analysis of the deposited data

How the results depend on the processing

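No member was called by any alternative. Genes called over the whole table were 0 with edgeR under each scaling, filter and the replicate block, 138 with DESeq2, 0 to 29 with 1 library left out, and 3 with both libraries numbered 2 left out. The last also took the medians to -0.13 (sterol enzymes), -0.089 (regulators) and -0.30 (fatty acid enzymes). With it 5345 genes (37.1%) and 17 members did not overlap between the labels. With 1 library left out, 2972 to 6194 genes and 2 to 11 members did not overlap, and the 2 counts did not run together. There were 11 members without corticosterone 1 (34.3% of all genes), 6 without corticosterone 2 (27.5%), 3 without corticosterone 3 (23%), 2 without vehicle 1 (20.1%), 10 without vehicle 2 (23.8%) and 5 without vehicle 3 (41.9%). Arm medians then ran from -0.034 to 0.20 (sterol enzymes), -0.022 to 0.089 (regulators) and -0.21 to 0.041 (fatty acid enzymes), so no direction by label held for any arm.

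The sign of the log2 difference changed on leaving out 1 library for 17 members, whose ranges were -0.27 to 0.14 (Acat2), -0.070 to 0.14 (Hmgcs1), -0.092 to 0.12 (Mvk), -0.044 to 0.32 (Pmvk), -0.029 to 0.27 (Idi1), -0.032 to 0.31 (Lss), -0.034 to 0.26 (Cyp51), -0.18 to 0.18 (Tm7sf2), -0.20 to 0.037 (Msmo1), -0.024 to 0.30 (Nsdhl), -0.067 to 0.15 (Sc5d), -0.14 to 0.13 (Dhcr7), -0.082 to 0.052 (Srebf2), -0.13 to 0.10 (Acaca), -0.074 to 0.45 (Acacb), -0.088 to 0.30 (Fasn) and -0.21 to 0.13 (Scd2). With both libraries numbered 2 left out it turned negative for 15, at -0.13 (Hmgcs1), -0.066 (Mvk), -0.21 (Pmvk), -0.092 (Idi1), -0.050 (Fdft1), -0.20 (Lss), -0.11 (Cyp51), -0.27 (Tm7sf2), -0.12 (Nsdhl), -0.0012 (Hsd17b7), -0.16 (Sc5d), -0.052 (Srebf1), -0.23 (Acaca), -0.20 (Fasn) and -0.018 (Me1). Mvk, Tm7sf2 and Acaca, at 0.0017, 0.0021 and 0.0016 with all libraries, turned to -0.0030, -0.0030 and -0.0028 with DESeq2, -0.0030, -0.0028 and -0.0027 with RLE scaling, -0.016, -0.017 and -0.017 with upper-quartile scaling, -0.047, -0.047 and -0.046 with library totals only, and -0.0029, -0.0017 and -0.0013 with no count filter. Mvk and Tm7sf2 also turned to -0.011 and -0.017 with limma-voom and to -0.0084 and -0.022 with the replicate block, and Hmgcs1 and Sc5d to -0.0050 and -0.016 with library totals only. The causes were not tested.

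Same-numbered libraries did not deviate together (correlations of -0.15, -0.27 and -0.32). The design text names no block, and these values cannot tell whether same-numbered cultures were set up together. With the replicate block 0 genes were called, and no corticosterone library correlated best with its own number.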
